A study of Mus musculus with 2 samples.

Results

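Isolated CpG sites were defined as autosomal CpG sites whose nearest covered CpG lies more than 1000 bp away on both sides, counted on the sites covered in at least 1 of 2 replicates. They numbered 14566 of 13754175 covered autosomal sites. For 2254 of them, the GRCm38.p6 sequence itself holds no other CpG within 1000 bp, and these are called isolated by the reference. The other 12312 have reference CpGs within that distance that were not covered, with a median of 6 such CpGs and a median of 170 bp to the nearest one. They are called isolated by coverage only. A further 38 covered sites had no covered neighbour on one side and were left out of all groups.

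The data came from SCoTCH-seq, which reads both strands of a short DNA fragment in 1 read pair and so calls C, mC and hmC on both strands of each CpG site. Genomic DNA was taken from 2 passages of E14, a mouse embryonic stem cell (mESC) line from another mouse strain than the C57BL/6J reference, with no treatment and no genetic change named in the labels, grown on gelatin in serum with LIF. Both passages are 1 condition, and they are called replicate 1 and replicate 2. Nothing in the labels gives the passage numbers, and the spread between the replicates is that between 2 libraries. Each call is 1 of 9 CpG states, written with the plus strand first, where C is unmodified, M is methylated and H is hydroxymethylated. The levels given are percentages of the summed calls, with the orientations of each asymmetric state added (MC/CM, HC/CH and HM/MH). Isolated sites carried 150725 calls at 14285 sites in replicate 1, or 10.6 calls per site. In replicate 2 they carried 25605 calls at 4002 sites, or 6.40 calls per site. Because of their spacing, none of them shares a read pair with another covered CpG.

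Methylation of CpG sites is copied after DNA replication by DNMT1, which is recruited by UHRF1 to CpG sites that carry mC on the parental strand only. DNMT3A and DNMT3B add methyl groups to unmodified CpG sites, and TET enzymes oxidize mC to hmC. The mammalian genome has lost most of its CpG sites because mC deaminates to T, which leaves TpG and CpA in their place. What remains are CpG islands, which are mostly unmethylated, and scattered CpG sites, which are mostly methylated. Single CpG sites flanked by A or T are known in somatic cells and tumours as the sites that lose methylation first in late-replicating domains as cells divide.

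Sequences of sites isolated by the reference are shown to give the surroundings of such a site. All are from the plus strand of GRCm38.p6, 5′ to 3′, with the isolated CpG in capitals, and all are read from the reference and not from the cells. They were chosen among 727 sites isolated by the reference that were covered in both replicates and lay outside exons. The first 3 are among the 5 of these with the widest spacing to the nearest reference CpG. The next 3 had the highest CC, and the last 4 were chosen for high MC/CM, MM or hydroxymethylated calls, among the 127 with at least 8 calls in each replicate.
chr17:54707200-54707321: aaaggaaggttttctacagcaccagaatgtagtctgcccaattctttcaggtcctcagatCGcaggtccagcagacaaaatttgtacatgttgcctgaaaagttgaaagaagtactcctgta
chr14:36343403-36343524: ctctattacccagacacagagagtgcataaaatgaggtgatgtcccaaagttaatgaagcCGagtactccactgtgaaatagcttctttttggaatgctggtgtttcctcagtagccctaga
chr19:14138746-14138867: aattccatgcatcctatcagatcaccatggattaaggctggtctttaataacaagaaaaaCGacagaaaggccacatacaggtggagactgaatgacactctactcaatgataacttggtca
chr8:43072231-43072292: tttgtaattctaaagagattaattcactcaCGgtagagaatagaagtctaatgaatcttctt
chr8:89804441-89804502: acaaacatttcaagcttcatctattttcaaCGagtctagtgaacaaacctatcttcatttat
chr2:55752725-55752786: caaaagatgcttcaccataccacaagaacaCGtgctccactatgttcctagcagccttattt
chr1:161317949-161318010: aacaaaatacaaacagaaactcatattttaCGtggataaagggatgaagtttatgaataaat
chr1:57921800-57921861: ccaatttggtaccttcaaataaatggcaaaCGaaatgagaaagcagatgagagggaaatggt
chr9:93791815-93791876: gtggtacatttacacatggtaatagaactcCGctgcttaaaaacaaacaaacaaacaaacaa
chr9:98201197-98201258: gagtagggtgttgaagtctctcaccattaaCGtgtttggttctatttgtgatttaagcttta

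The site with the widest spacing among the 727, at 54707260 of chromosome 17, lies 2017 bp from the nearest reference CpG in intergenic DNA with 28.5% GC within 500 bp. It was read as CC in 3 and as MM in 4 of 8 calls in replicate 1, and as CC in 3 and as MM in 3 of 6 calls in replicate 2. The next, at 36343463 of chromosome 14, lies 1913 bp away, and MM made up 9 of 15 and 6 of 7 calls. At 14138806 of chromosome 19, 1683 bp from the nearest CpG, CC made up 4 of 8 and 2 of 5 calls. At the other 2 of the 5, at 91700621 of chromosome 14 and 70855550 of chromosome 4, CC made up 1 of 14 and 0 of 7 calls, and 0 of 9 and 0 of 6 calls. The 5 sites thus ran from no CC call to CC in 4 of 8 calls. Over all sites isolated by the reference, the widest spacing was 2621 bp. The 727 sites leave out chromosome 18, from which no site is named here.

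Isolation by the reference is rare. In all, 2729 autosomal reference CpGs, or 0.0134%, lie more than 1000 bp from any other, and 2254 of these (82.6%) were covered, against 52.7% of reference CpGs within 10 bp of another. Isolated sites were found on all 19 autosomes, from 362 of 815423 covered sites on chromosome 11 to 1126 of 767444 on chromosome 7, the lowest and highest shares. For the comparisons, spaced sites are those whose nearest covered CpG is more than 200 and up to 1000 bp away (1216461 sites), and close sites have one within 100 bp (10670587 sites).

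Isolated sites lay in AT-rich, gene-poor DNA. The median GC content within 500 bp was 35.7% around sites isolated by the reference and 38.6% around those isolated by coverage only, against 39.9% for spaced and 45.0% for close sites. Of the sites isolated by the reference, 74.5% were intergenic and 19.5% lay in protein-coding genes, whereas 36.9% of spaced and 53.6% of close sites lay in such genes. Promoters, taken as 1 kb on either side of a TSS, held 0.799% of sites isolated by the reference. They held 0.718% of spaced sites, which is close to that share, and 5.41% of close sites. The median distance to a TSS was 263618 bp for sites isolated by the reference, 103793 bp for spaced and 41796 bp for close sites. TpG and CpA together made up a median of 14.2% of the dinucleotides within 500 bp of sites isolated by the reference and 15.2% around close sites. These shares were not corrected for GC content, which differs between the groups.

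The sites isolated by coverage only differed from those isolated by the reference in their repeats. Soft-masked repeats held 51.4% of the former and 23.0% of the latter, against 23.6% of spaced and 11.2% of close sites. Among all reference CpGs, covered or not, repeats held 27.3% of those more than 1000 bp from another. They held 24.7% of those within 10 bp of another, so the low share at close sites is one of covered CpGs only. CpGs that were not covered have no value here.

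Symmetric methylation was the most frequent CpG state at isolated sites, as it was elsewhere. MM made up 56.2% of calls (95% exact binomial interval 56.0 to 56.5) in replicate 1 and 60.9% (60.3 to 61.5) in replicate 2, a mean of 58.6% ± 3.32 (SD, n = 2). CC made up 22.0% and 18.8%, a mean of 20.4% ± 2.28 (SD, n = 2). Hemimethylation followed, with MC/CM at 16.5% and 17.7%, a mean of 17.1% ± 0.880 (SD, n = 2). HC/CH made up 2.10% and 1.49% of calls and HM/MH 2.87% and 1.05%. HH made up 0.307% and 0.0195%. The intervals cover counting error only, and calls of 1 library are not independent cultures.

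**Figure D1:**
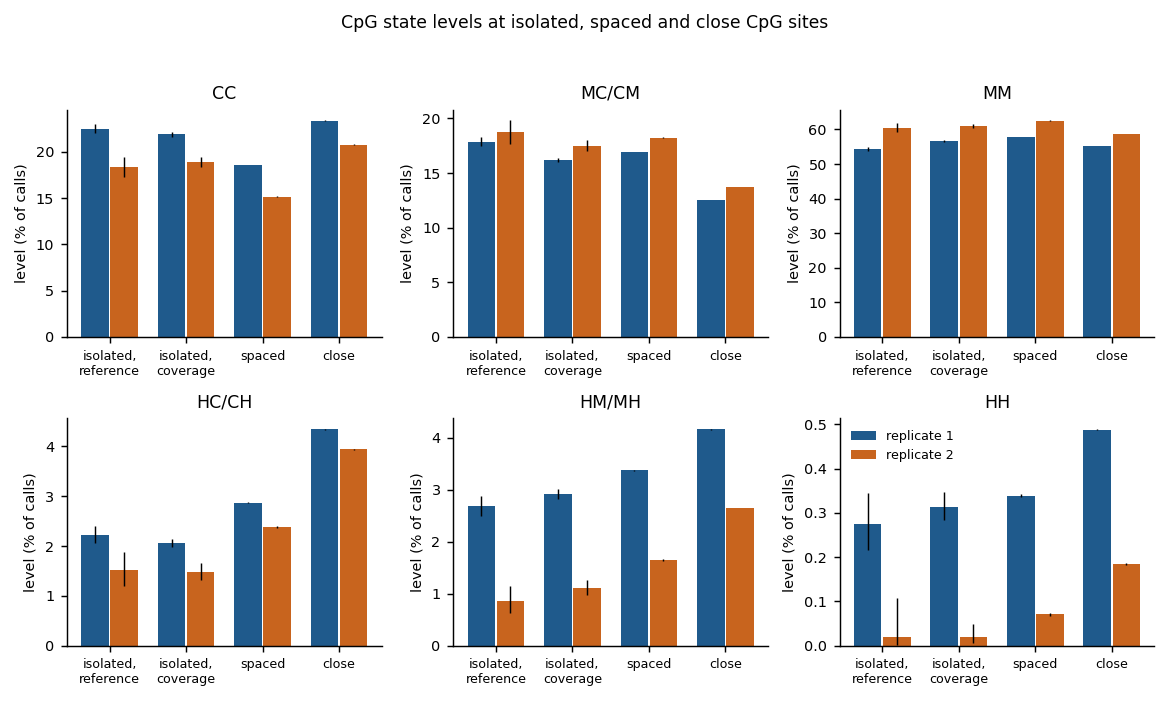
Level of each CpG state (% of calls, linear axis from 0) at sites isolated by the reference, sites isolated by coverage only, spaced sites and close sites, with a bar for each replicate and 95% exact binomial intervals. MC/CM stands at 17.9% and 18.7% at sites isolated by the reference and at 12.5% and 13.7% at close sites, and HC/CH falls from 4.34% and 3.94% at close sites to 2.23% and 1.52%.

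Part of the hydroxymethylated calls are miscalls of methylated sites. On spike-in duplexes of known MM state, 4.51% of calls in replicate 1 and 0.467% in replicate 2 were HM/MH, and 0.709% and 0.0117% were HH. After solving for the call rates of each replicate's own spike-ins, HM/MH at isolated sites was 0.0989% in replicate 1 and 0.721% in replicate 2, and HH was -0.134% and 0.00502%, a negative value being one that the correction overshoots. At other sites the corrected HM/MH was 1.31% and 2.12%, and the corrected HH was -0.0134% and 0.145%. HC/CH was less affected, at 1.44% and 1.34% after the correction, and MC/CM was 16.0% and 16.6%.

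Compared with all other covered sites, isolated sites were richer in hemimethylation and poorer in hydroxymethylation. MC/CM was 16.5% against 13.4% in replicate 1 and 17.7% against 14.6% in replicate 2. The difference was 3.05 and 3.12 percentage points, a mean of 3.08 ± 0.0502 (SD, n = 2), and it was positive on 19 of 19 autosomes in both replicates. HC/CH was 2.10% against 4.07% and 1.49% against 3.67%, a mean difference of -2.08 ± 0.141 points (SD, n = 2), negative on 19 of 19 autosomes. HM/MH, at 2.87% against 4.01% and 1.05% against 2.47%, differed by -1.28 ± 0.195 points (SD, n = 2), and HH by -0.146 ± 0.0042 points (SD, n = 2). HH is close to the floor, at 0.0195% of 25605 calls at isolated sites of replicate 2. In each of these 4 states and both replicates, an exact sign-flip permutation test over the 19 autosomes, two-sided, gave p = 3.81e-06, the smallest value it can give, with an adjusted p of 2.57e-05 over 108 tests. The call for MC/CM was lost in replicate 2, with the direction kept, at sites with at least 10 calls (mean difference 2.08 points, adjusted p = 0.261 in the exact permutation test) and with isolation at more than 2000 bp (2.32 points, adjusted p = 0.0867), and that for HH was lost at more than 2000 bp. Autosomes are blocks of 1 library, not replicates of the culture, so the test says how evenly a difference runs over the genome.

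CC and MM differed less. CC differed by -0.196 and -0.730 points between isolated and other sites, with adjusted p = 0.394 and 0.134 in the exact permutation test. MM was higher by 0.412 and 1.34 points, with adjusted p = 0.232 and 0.0151 in the exact permutation test. The direction of both changed with the sites compared. CC was higher at isolated sites by 2.18 points at sites with at least 10 calls, by 1.36 points with isolation at more than 2000 bp and by 1.02 points outside soft-masked repeats, where MM differed by -0.971, -0.379 and -0.630 points, none of them past the threshold in both replicates. CC was lower and MM higher, past the threshold in both replicates, with isolation at more than 500 bp, by -2.83 and 1.93 points, and as a mean of per-site percentages, by -1.43 and 1.72 points. With the distance counted within the same replicate they were -2.38 and 2.23 points and did not pass. Within 6 bins of GC content, CC was higher at isolated sites by a mean of 3.28 points and MM differed by -2.45 points, past the threshold in both replicates (largest adjusted p 0.00444 and 0.00313 in the exact permutation test). Close sites in GC-rich DNA include unmethylated CpG islands. Within the same bins, MC/CM remained higher by 1.03 points, and HC/CH and HM/MH differed by -0.989 and -0.780 points.

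As a share of methylated sites, hemimethylation was higher at greater distances up to 500 bp. The hemimethylated share, MC/CM divided by the sum of MC/CM and MM, was 15.4% and 15.9% at sites with a covered CpG within 10 bp, 21.7% in both replicates for distances above 100 and up to 200 bp, and 23.1% and 23.0% above 500 and up to 900 bp. Just outside the limit of isolation, above 900 and up to 1000 bp, it was 23.1% in both replicates, and just inside it, up to 1100 bp, it was 23.4% and 22.7%. Levels at the limit thus ran on without a step. CC changed little across the limit as well, from 20.96% and 17.99% to 21.4% and 18.1%. HC/CH, corrected with each replicate's own call rates, fell from 4.20% and 4.21% above 10 and up to 25 bp to 1.49% and 1.28% just outside the limit and stood at 1.51% and 1.42% just inside it. Farther out, the share was 21.9% and 23.1% above 1500 and up to 2000 bp, 21.8% and 23.3% up to 3000 bp and 21.3% in both replicates beyond. By the distance to the nearest reference CpG, the share was 21.9% in both replicates above 100 and up to 200 bp. It was 23.9% and 23.7% above 500 and up to 900 bp, and 24.0% and 25.2% above 900 and up to 1000 bp. At isolated sites it was 24.7% and 24.0% up to 1100 bp, and 24.7% and 23.6% up to 1500 bp. Above 1500 and up to 2000 bp it was 24.9% and 20.5%, in 776 and 178 calls. These values by distance were not tested.

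The share was also taken in control DNA. In methylated lambda DNA, whose CpGs are at most 103 bp apart, the same share was 3.96% and 6.91% within 10 bp and 3.12% and 3.23% above 50 bp, where it rests on 15 sites. It was thus lower above 50 bp than within 10 bp, the opposite of the mESC DNA. In unmethylated pUC19 DNA, where CC made up nearly all calls and the share has no meaning, MC/CM was 0.238% and 0.3798% within 10 bp and 3.27% and 7.12% at the 1 site above 50 bp. No control has CpGs as far apart as the isolated sites.

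**Figure D2:**
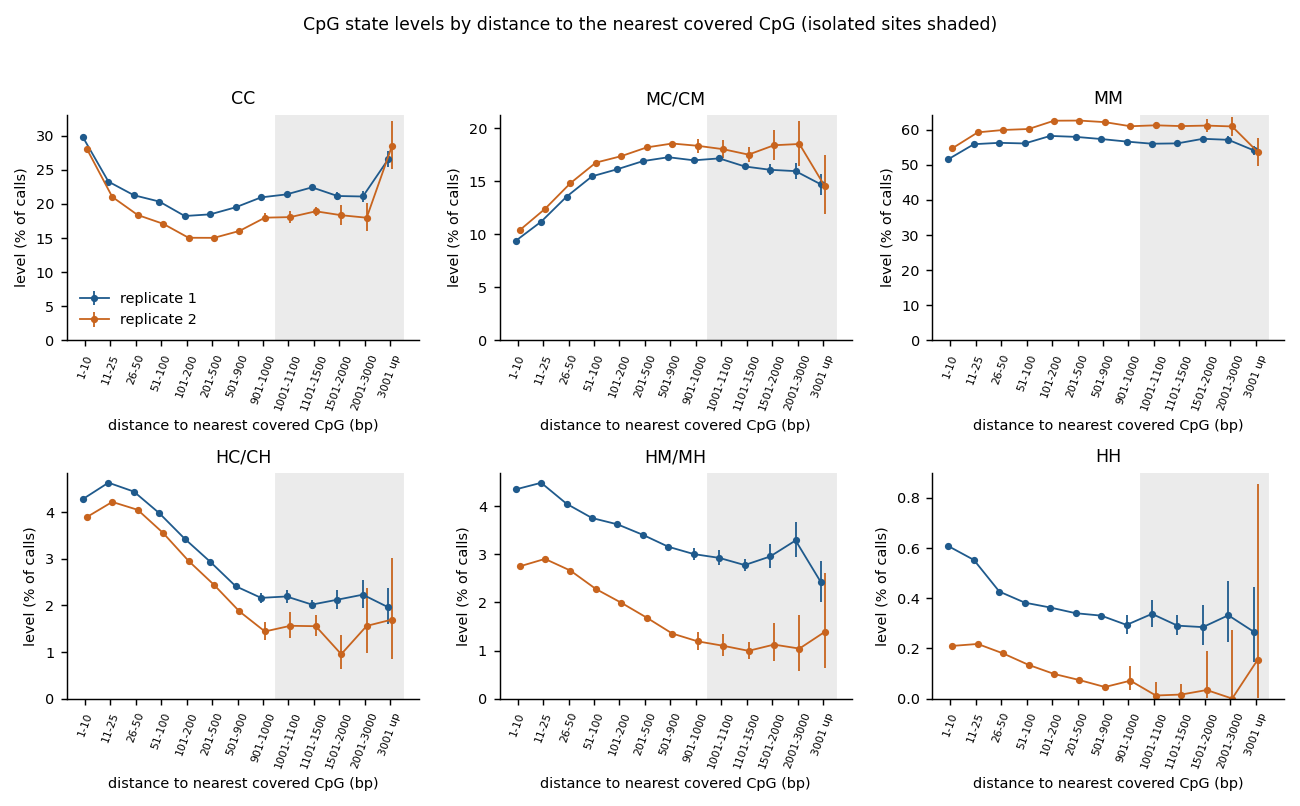
Level of each CpG state (% of calls, linear axes from 0) against the distance to the nearest covered CpG, in bins of bp, for replicate 1 and replicate 2, with 95% exact binomial intervals and isolated sites shaded. MC/CM climbs over the first 200 bp and stays between 14.5% and 18.5% beyond, HC/CH declines from 25 bp up to the limit of isolation, and CC is lowest between 100 and 500 bp and highest in replicate 1 within 10 bp.

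Sites with a nearest covered CpG above 3000 bp away stood apart from the other isolated sites. There were 579 in replicate 1 and 100 in replicate 2. Each has a reference CpG within 2621 bp that was not covered, so these distances are gaps in coverage and not CpG spacing. CC was 26.6% and 28.5% there and MM 54.1% and 53.7%, against 21.1% and 17.98% for CC and 57.1% and 60.9% for MM above 2000 and up to 3000 bp.

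Set against spaced sites, isolated sites had more unmodified and fewer hydroxymethylated calls, and no difference in hemimethylation passed the test. The median number of other reference CpGs within 1 kb was 9 at spaced, 5 at isolated and 21 at close sites. Soft-masked repeats held 23.6% of spaced and 47.0% of isolated sites, so the surroundings of the 2 groups are not matched. CC was 22.0% against 18.6% in replicate 1, higher on 17 of 19 autosomes, and 18.8% against 15.2% in replicate 2, higher on 16. The mean difference was 3.51 ± 0.155 points (SD, n = 2), with adjusted p = 0.000223 and 0.00186 in the exact permutation test. HC/CH differed by -0.776 and -0.884 points and HM/MH by -0.509 and -0.591, past the threshold in both replicates. At sites with at least 10 calls HM/MH differed by -0.473 points and passed in replicate 1 only. HH differed by -0.0325 and -0.0512 points and passed in replicate 2 only (adjusted p = 0.127 and 0.000544, exact permutation test). MM differed by -1.65 and -1.62 points, with adjusted p = 0.00722 and 0.0955 in the exact permutation test. For MC/CM the differences of -0.434 and -0.478 points did not pass (adjusted p = 0.352 and 0.816, exact permutation test). Outside soft-masked repeats the difference in CC was larger, at 5.30 points. With GC content held in bins it was 3.45 points.

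The difference in CC was also taken without the sites with almost no methylation. Among sites with at least 8 calls, CC was 22.6% at isolated and 18.8% at spaced sites in replicate 1, and 22.4% and 16.0% in replicate 2. Without the sites at which CC reached 80%, it was 15.7% and 14.4% in replicate 1 and 13.9% and 10.96% in replicate 2. At sites isolated by the reference, CC went from 22.6% to 18.8% in replicate 1 and from 21.7% to 14.9% in replicate 2. The distance to spaced sites was thus smaller without these sites in each case but for sites isolated by the reference in replicate 1. MC/CM without them was 18.2% at isolated, 18.1% at spaced and 14.2% at close sites in replicate 1, and 19.4%, 19.4% and 15.4% in replicate 2. These sites were set apart by their CC level, which by itself can change a difference in CC, so the values are a description.

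Methylation can differ between domains of the genome, so isolated sites were also set against close sites of the same 100-kb windows. In 7599 windows in replicate 1, MC/CM was 16.5% at isolated and 14.01% at close sites, and in 3130 windows in replicate 2 it was 17.8% and 15.1%. The differences of 2.51 and 2.65 points were positive on 19 of 19 autosomes. MM was 56.3% against 59.5% and 61.0% against 63.9%, a mean difference of -3.04 ± 0.276 points (SD, n = 2). HC/CH differed by -0.509 and -0.578 points and HM/MH by -0.761 and -0.613. All 4 passed in both replicates (largest adjusted p 0.000681, exact permutation test). In windows of 1 Mb MM differed by -1.70 points and no longer passed in replicate 2 (adjusted p = 0.0803, exact permutation test). CC was higher by 2.12 points in replicate 1 and by 1.45 points in replicate 2, with adjusted p = 0.000206 and 0.120 in the exact permutation test. The mean difference in HC/CH was -0.544 points from close sites within windows and -2.08 points from all other sites without windows. These 2 values differ in the sites compared and in weights as well as in the windows. Without windows, HC/CH was 2.10% and 1.49% at isolated and 4.34% and 3.94% at close sites.

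**Figure D3:**
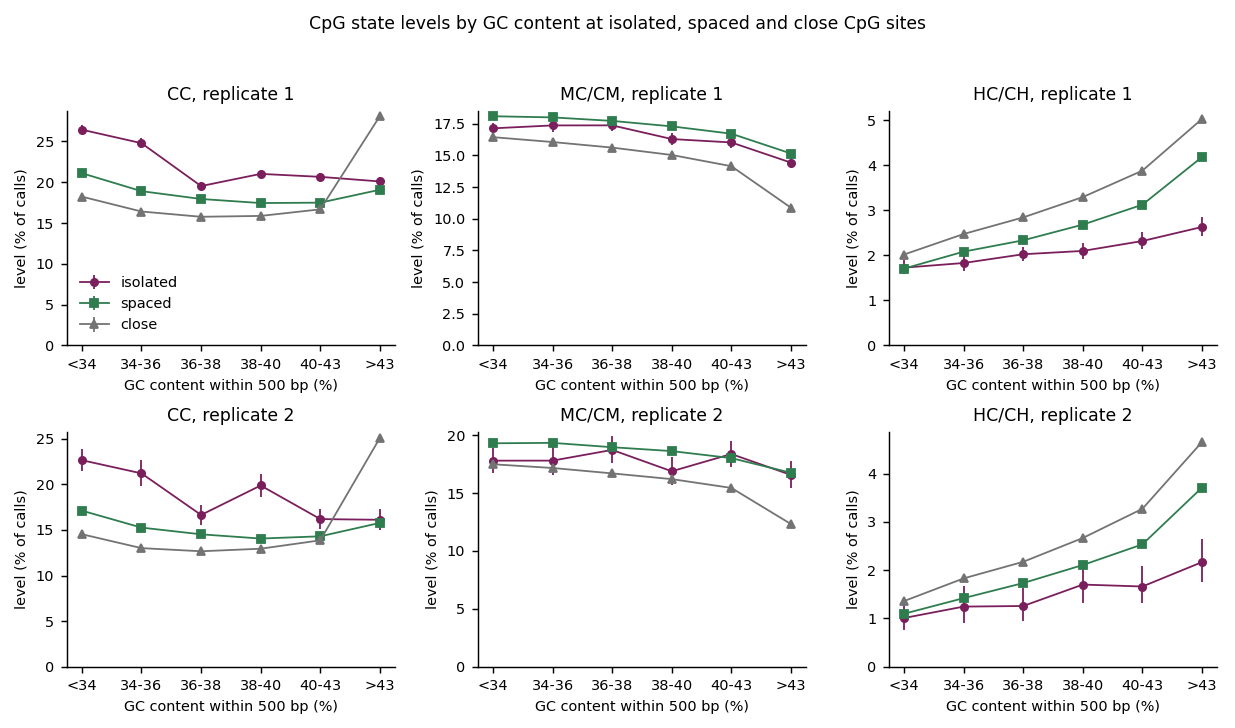
Levels of CC, MC/CM and HC/CH (% of calls, linear axes from 0) against the GC content within 500 bp of the site (%), at isolated, spaced and close sites, with replicate 1 above and replicate 2 below and 95% exact binomial intervals. In DNA under 34% GC, CC at isolated sites stands above that at close sites (26.4% and 18.2% in replicate 1), and above 43% GC the HC/CH of isolated sites is the lowest of the 3 groups.

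The groups lay apart by different amounts at different GC content. In DNA under 34% GC, HC/CH in replicate 1 was 1.73% at isolated, 1.71% at spaced and 2.02% at close sites. Above 43% GC it was 2.63%, 4.19% and 5.03%. CC under 34% GC was 26.4% at isolated, 21.1% at spaced and 18.2% at close sites in replicate 1, and 22.7%, 17.1% and 14.5% in replicate 2. CC was thus highest at isolated sites in the most AT-rich DNA, in both replicates. MC/CM under 34% GC was 17.1%, 18.1% and 16.4% in replicate 1, and above 43% GC it was 14.4%, 15.2% and 10.9%. These values by bin were not tested, and repeats, genes and reference CpGs differ between the groups along with GC content.

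Sites isolated by the reference had more hemimethylation than those isolated by coverage only in replicate 1. MC/CM was 17.9% against 16.2% in replicate 1, higher on 16 of 19 autosomes (adjusted p = 0.000223, exact permutation test), and 18.7% against 17.5% in replicate 2 (adjusted p = 0.254). MM was 54.4% against 56.6% in replicate 1 (adjusted p = 0.00108) and 60.5% against 61.0% in replicate 2 (adjusted p = 0.390, exact permutation test). Each difference thus passed in replicate 1 only. At sites with at least 10 calls the mean difference over the replicates turned, to -0.436 points for MC/CM and 3.08 points for MM. CC and the hydroxymethylated states did not pass in either replicate.

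Of the comparisons within isolated sites, that by flanking bases gave the largest differences. Sites with A or T on both sides of the CpG, read on both strands, are those such as ACGA or TCGA. They made up 44.2% of sites isolated by the reference, 38.6% of spaced sites and 30.6% of other sites. Sites with C or G on both sides, such as CCGC or GCGC, made up 10.96%, 14.6% and 20.3%. GC content differs between these groups, and the shares were not corrected for it. At sites isolated by the reference, MM was 51.02% between A or T and 62.5% between C or G in replicate 1, and 58.6% and 69.7% in replicate 2. The difference was -11.5 and -11.2 points, a mean of -11.3 ± 0.237 (SD, n = 2), with adjusted p = 0.00185 and 0.0436 in the exact permutation test. Sites with A or T on 1 side were between the 2, at 56.2% and 60.7%. At sites with at least 10 calls the mean difference in MM was -14.3 points and passed in replicate 1 only, since 2 autosomes held such sites of both kinds in replicate 2.

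Hemimethylation ran opposite to symmetric methylation. MC/CM was 19.3% between A or T and 14.4% between C or G in replicate 1, and 19.6% and 13.5% in replicate 2, a difference of 4.84 and 6.16 points (adjusted p = 0.0390 and 0.0226, exact permutation test). The mean of 5.50 points no longer passed in both replicates at sites with at least 10 calls, where it was 2.71 points with the difference in replicate 2 turned to -1.03, or as a mean of per-site percentages, where it was 4.98 points. The hemimethylated share was 27.4% and 25.1% between A or T and 18.7% and 16.2% between C or G. CC was 24.3% against 18.8% and 19.3% against 14.5%, which did not pass (adjusted p = 0.116 and 0.291, exact permutation test), though over all isolated sites the difference of 6.999 points did in both replicates. The hydroxymethylated states did not pass in any of these comparisons. Spaced sites showed the same order, with MM at 53.9% between A or T and 63.6% between C or G in replicate 1. In close sites MM was 53.6% and 54.6% in replicate 1 and, in the other direction, 58.4% and 57.1% in replicate 2. MC/CM in close sites kept the order of the isolated sites, at 14.4% between A or T and 9.97% between C or G in replicate 1. In replicate 2 it was 15.7% and 11.01%. CC in close sites ran the other way, at 22.96% and 26.8% in replicate 1 and 19.5% and 24.9% in replicate 2. Whether the effect of the flanks differs between isolated and close sites was not tested.

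**Figure D4:**
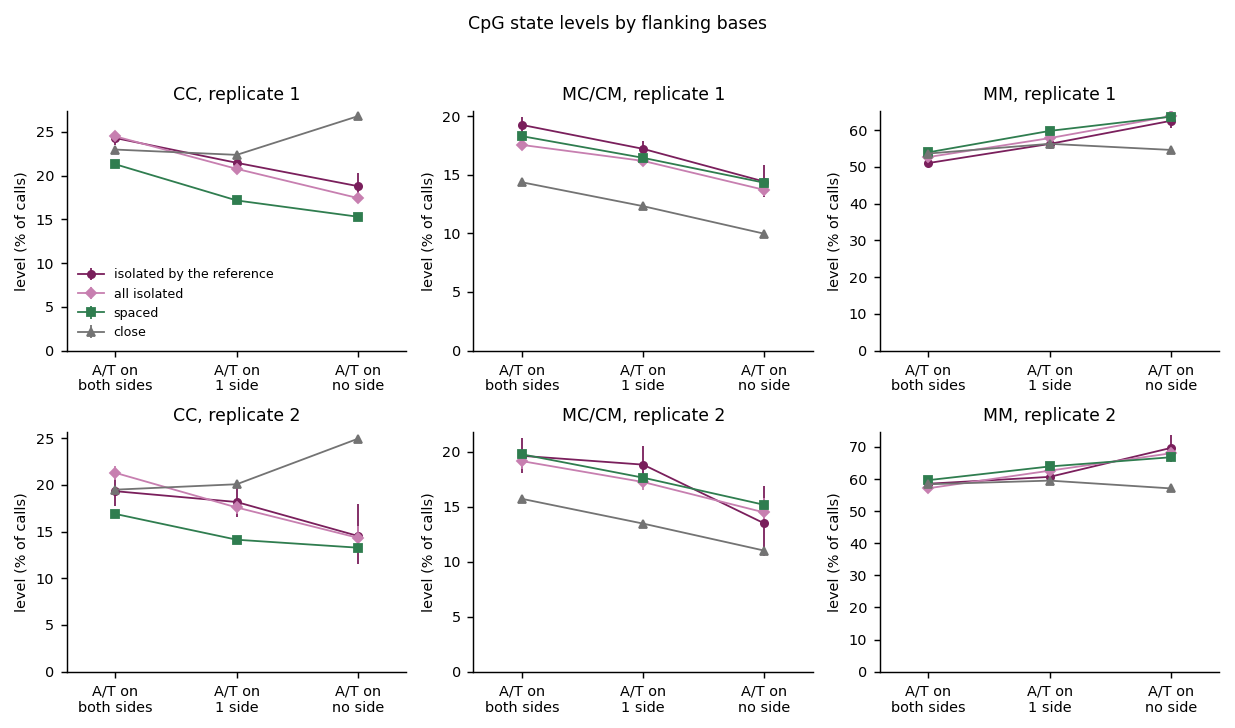
Levels of CC, MC/CM and MM (% of calls, linear axes from 0) by the number of sides on which A or T flanks the CpG, at sites isolated by the reference, all isolated sites, spaced sites and close sites, with replicate 1 above and replicate 2 below and 95% exact binomial intervals. At sites isolated by the reference, MM is 51.02% and 58.6% with A or T on both sides and 62.5% and 69.7% with A or T on no side, and MC/CM runs the other way.

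The strands were also compared. At isolated sites MC and CM were 8.25% each in replicate 1, and HC and CH were 1.09% and 1.01%. Among the 6 sequence contexts that read differently on the 2 strands, 2 of 36 tests passed at sites isolated by the reference, both on HC against CH in replicate 1. In ACGA, hmC lay on the ACGA strand in 1.61% of calls and on the TCGT strand in 0.603% (adjusted p = 0.00811, exact permutation test), and in replicate 2 the values were 1.06% and 0.529% (adjusted p = 0.266). In CCGC, the values were 0.369% and 1.62% in replicate 1 (adjusted p = 0.0132, exact permutation test), and in replicate 2 the difference was 0.413 points in the other direction and did not pass. Over all isolated sites, 11 of 36 tests passed, of which 9 were in replicate 1. In CCGA, mC lay on the CCGA strand of MC/CM calls in 8.09% and on the TCGG strand in 8.94% of calls in replicate 1 (adjusted p = 0.00323, exact permutation test), and in replicate 2 the values were 8.21% and 9.14% (adjusted p = 0.209). In GCGA, HM/MH calls had hmC on the GCGA strand in 1.72% and on the TCGC strand in 1.07% of calls in replicate 1 (adjusted p = 0.0135, exact permutation test), and in replicate 2 the difference was -0.0452 points and did not pass. The asymmetry of HC/CH in ACGA passed in both replicates, at 1.34% against 0.731% and 0.911% against 0.446% (adjusted p = 0.000118 and 0.0121, exact permutation test).

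No difference between isolated sites within and outside genes passed the test. At sites isolated by the reference, MC/CM was 18.8% within and 17.6% outside genes in replicate 1 and 19.3% and 18.3% in replicate 2, and CC was 21.7% and 22.7%, and 15.4% and 19.1%. The other states did not pass either. Isolated sites in promoters had 25.4% CC and 53.9% MM in 1110 calls of replicate 1, and 13.3% and 60.4% in 225 calls of replicate 2. Close sites in promoters, which include CpG islands, had 79.5% and 77.3% CC. Isolated sites in promoters were therefore mostly methylated. In soft-masked repeats, isolated sites had 18.7% and 16.0% CC, and outside them 24.3% and 20.2%.

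Among protein-coding genes, 322 of 20807 held a site isolated by the reference, and 254 of these held 1. The 10 genes with most such sites were 477 to 2245 kb long. Dok6, an adaptor of receptor tyrosine kinases, and Lrp1b, a large lipoprotein receptor, held 6 each. Cntnap2, Cntnap5a and Cntnap5c, which encode contactin-associated cell adhesion proteins, held 5 each, as did the dipeptidyl peptidase-like Dpp10, the glutamate receptor Grm7, the synaptic adhesion protein gene Lrrc4c and the sarcoglycan gene Sgcz, and Cntnap5b held 4. Over the 10 genes, the sites isolated by the reference had 28.2% CC, 16.5% MC/CM and 51.2% MM in 600 calls of replicate 1, and 20.4%, 20.4% and 58.2% in 98 calls of replicate 2. Other sites of the same genes had 21.6% CC and 57.5% MM in replicate 1 and 18.5% and 62.5% in replicate 2. With so few calls per gene, the genes were not compared with each other.

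At single sites, levels ran from fully unmodified to fully methylated. Of 9356 isolated sites with at least 8 calls in replicate 1, the median MM was 60% with quartiles of 44.3% and 75%, and 15.7% of sites reached 80% MM. The median in replicate 2 was 62.5% over 764 sites. At 651 sites (6.96%) in replicate 1 and 65 sites (8.51%) in replicate 2, every call was CC. The share was 4.12% and 4.17% of sites isolated by the reference, 4.08% and 4.89% of spaced sites and 6.87% and 7.88% of close sites. A hemimethylated level of 50% or more was found at 2.20% and 5.63% of isolated sites, 1.96% and 5.17% of spaced sites and 1.02% and 2.84% of close sites. No hydroxymethylated call was found at 56.3% and 83.6% of isolated sites and at 41.8% and 62.8% of close sites.

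**Figure D5:**
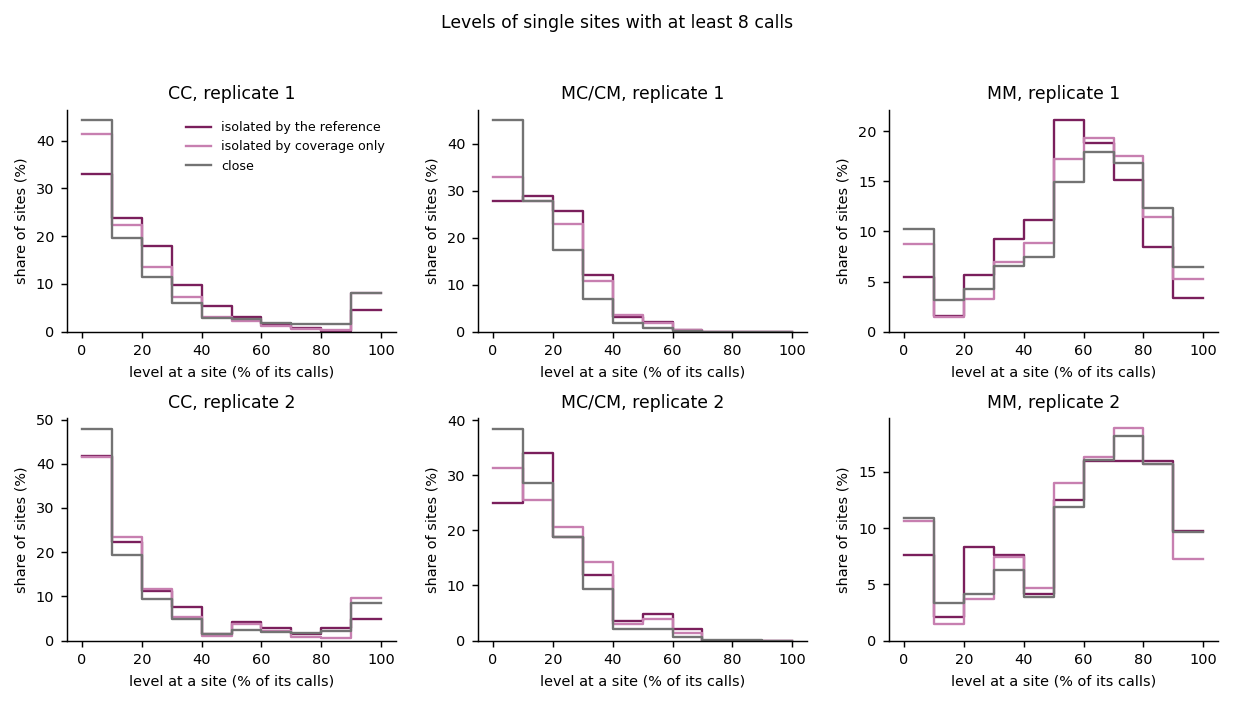
Share of sites (%) by their level of CC, MC/CM or MM (% of calls of the site, in steps of 10 points), for sites with at least 8 calls isolated by the reference, isolated by coverage only and close, with replicate 1 above and replicate 2 below. CC has a second peak of sites at 90% and above in every group, lowest for sites isolated by the reference, and MM is broad with most sites above 50%.

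Which isolated sites were unmodified was shared by the replicates. At 216 isolated sites every call was CC in replicate 1 and the site was also covered in replicate 2. At 204 of these (94.4%) every call was CC in replicate 2 too, CC made up 99.0% of their 1462 calls there, and at none was it under 50%. Taken from replicate 2, 58 of 65 sites were again fully CC in replicate 1. For sites isolated by the reference the counts were 24 of 26 and 6 of 6. The share of fully CC sites that were again fully CC was 94.4% and 89.2% for isolated, 94.3% and 90.0% for spaced and 86.4% and 81.5% for close sites. The shares of isolated and spaced sites thus lay close together, and their difference was not tested. The DNA around them was less methylated as well. Covered sites more than 1 kb and up to 5 kb away had 33.1% and 34.2% CC around the fully CC isolated sites and 19% and 16.0% around isolated sites with CC under 80%. A reference CpG that E14, which is of another strain, carries as TpG or CpA can be read as CC, and this was not tested.

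The sites with the highest CC illustrate this class. At 43072261 of chromosome 8, 57.5 kb from Triml1, all 26 calls in replicate 1 and all 9 in replicate 2 were CC. At 89804471 of chromosome 8, 443 kb from Tox3, all 22 and all 9 calls were CC. At 55752755 of chromosome 2, in a soft-masked repeat 155 kb from Kcnj3, all 15 and all 14 were. At 43072261 of chromosome 8 the GC content within 500 bp was 25.7%.

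Of CC, MM, MC/CM and HC/CH, the levels of single sites were correlated most between the 2 replicates for CC and least for HC/CH. A correlation depends on the spread between sites and does not measure how close the levels are. Over 3721 isolated sites covered in both replicates, CC had a Pearson's r of 0.81 between replicate 1 and replicate 2, MM one of 0.56, MC/CM one of 0.15 and HC/CH one of 0.11, across sites that share libraries and have few calls each. The SD between sites that both replicates share was 24.5 points for CC, 19.8 for MM and 5.80 for MC/CM. The same order of states was found at the 782 sites isolated by the reference, where r was 0.69 for CC, 0.46 for MM and 0.11 for MC/CM. At 161317979 of chromosome 1, chosen for the highest MC/CM in the lower replicate, it was 37.0% of 27 calls and 37.5% of 8. At 57921830 of chromosome 1, in an intron of Spats2l, it was 33.3% of 18 calls and 30% of 10, with 3 MC and 3 CM calls in replicate 1.

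Sites with high methylation and with hydroxymethylation were also found. At 93791845 of chromosome 9, MM made up 17 of 19 calls in replicate 1 and 8 of 8 in replicate 2. At 103662553 of chromosome 7, in an intron of the olfactory receptor gene Olfr623, it made up 22 of 23 and 8 of 9. At 98201227 of chromosome 9, 1554 bp from the nearest reference CpG, hydroxymethylated states made up 21.4% of 14 and 11.1% of 9 calls, which are 3 and 1 calls. These sites were picked on their levels among 127 with at least 8 calls in each replicate, so their levels are a description.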

How the data were processed

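The authors filtered read pairs by adapter configuration with Cutadapt 4.6, aligned inserts to GRCm38 (mm10) with BSBolt, removed duplicates with Picard 3.1.1 and called a CpG state per read pair. Per replicate, the authors deposited how many calls of every state a CpG site had, as a count and as a percent, for sites with at least 5 calls outside blacklisted regions. The deposited percentages equal the counts divided by the depth of the site and are not corrected by the spike-ins. The labels and the methods give different shares of FBS in the medium.

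Counts were summed over sites in Python 3.11.15 (pandas 2.3.3, NumPy 2.4.6, SciPy 1.17.1, and Matplotlib 3.10.9 for plots). Every site lay on a CpG of GRCm38.p6. Genes and exons came from GENCODE's mouse annotation of that build, and repeats are the soft-masked bases. Call rates came from the spike-in duplexes, whose states were taken from the study's supplement, and were solved as 9 linear equations without setting negative values to 0. Depth was 10.6 and 6.40 calls per isolated site. No test between samples was made, since both are of 1 condition. Differences were tested in each replicate with an exact two-sided sign-flip permutation test over 19 autosomes on unweighted autosome differences, Benjamini-Hochberg adjusted over 108 tests, of which 36 passed 0.05, while the differences printed are of summed calls. Intervals are exact Clopper-Pearson at 95%. The steps were tested on simulated data.

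The sites shown were, among 727 sites isolated by the reference, covered in both replicates, outside exons and not on chromosome 18, the 5 of widest spacing, and, with at least 8 calls in each replicate, the 3 highest in CC, MC/CM, MM and hydroxymethylated states by the lower replicate. The genes were the 10 with most sites isolated by the reference. The group of sites and the comparisons were chosen with earlier results of these data known. Alternatives were other call rates, coverage minimums, weights, distances, windows and leaving out a replicate, and, chosen after seeing the data, GC bins, repeats and all isolated sites.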

Additional observations from a re-analysis of the deposited data

How the results depend on the processing

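Of the recomputed values, 207 kept their direction and their side of the threshold, among them all 30 with each replicate's own call rates, 24 changed direction, 13 newly passed, 8 no longer passed and 1 count moved. For isolated minus other sites, CC was 2.18 points at a coverage minimum of 10, -1.43 as a mean of per-site percentages and -2.83 with isolation at more than 500 bp, both now passing, -2.38 with distances within the same replicate, 1.36 at more than 2000 bp, 0.110 at sites in both replicates, 3.28 within GC bins and 1.02 outside repeats. MM was -0.971 at the coverage minimum, 1.72 per site and 1.93 at 500 bp, both now passing, 2.23 with distances within the same replicate, -0.379 at 2000 bp, -0.225 by reference distance, -2.45 within GC bins, -0.630 outside repeats and 0.412 to 1.34 leaving out a replicate. MC/CM was 2.08 points at the coverage minimum and 2.32 at 2000 bp, and HH -0.130 at 2000 bp, no longer passing. Fewer sites enter at these 2 settings.

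For isolated minus spaced sites, MM was -3.35 outside repeats and -1.65 to -1.62 leaving out a replicate, HM/MH -0.473 at the coverage minimum, no longer passing, and HH -0.0512 to -0.0325 leaving out a replicate. Within windows, CC was 2.56 with GC of 34 to 43% and 1.45 to 2.12 leaving out a replicate, and MM -1.70 in windows of 1 Mb, no longer passing. For sites isolated by the reference minus coverage only, the coverage minimum gave -2.70 for CC, -0.436 for MC/CM and 3.08 for MM, and leaving out a replicate gave -0.511 to 0.606, 1.23 to 1.70 and -2.21 to -0.501.

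By flanking bases, the coverage minimum gave 2.71 for MC/CM and -14.3 for MM, no longer passing, and -0.0256 for HC/CH and -0.0360 for HH. MC/CM was 4.98 per site, no longer passing. Over all isolated sites, CC was 6.999 and HM/MH -0.355. HM/MH was -0.141 to 0.693 leaving out a replicate. For genic minus intergenic sites, MM was -0.254 per site, -0.839 over all isolated sites and -0.407 to 2.14 leaving out a replicate, when HC/CH was -0.155 to 0.394, HM/MH -0.0364 to 0.632 and HH -0.137 to 0.0957. Of 36 strand tests, 11 passed over all isolated sites and 2 at those isolated by the reference. The cause of these changes was not tested. No paired analysis was possible because both samples belong to 1 group, which leaves no groups of samples to pair, while differences between kinds of sites were taken within each library.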
